A study of Mus musculus with 8 samples.

Results

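Bone morphogenetic protein (BMP) signalling was followed through 9 genes, listed by name with earlier results of these data known. They were the ligand Bmp4, the type I receptor Bmpr1a, the signal transducers Smad1 and Smad5, the inhibitors Smad6 and Bambi, and the target genes Id1, Id2 and Id3. They are 9 of 55421 genes in the count table, and all 9 were among the 14647 genes with enough reads to be tested. The cells were mouse embryonic stem cells of the E14 line and 129/Ola background, labelled as of blastocyst origin, in which the microRNA cluster miR-290-295 is knocked out. All groups carry that deletion, the control group included, so no group shows wild-type cells. Cells were grown on gelatin in DMEM with serum and 100 U/ml of the cytokine LIF and transfected at 5 nM with a siPOOL, a defined pool of many siRNAs that share 1 target transcript. The siPOOLs were directed against Tfap4 (group siTfap4), Wiz (siWiz) or Zic2 (siZic2), or were a negative control (siNeg). Cells were harvested after 36 h, and each group held 2 libraries, which the design calls biological duplicates. Whether the duplicates came from separate cultures is not given, so p-values measure the spread between these libraries.

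BMP ligands bind a complex of type I and type II serine-threonine kinase receptors. The activated receptor phosphorylates Smad1 and Smad5, which enter the nucleus with Smad4 and switch on target genes, among them the Id genes and the feedback inhibitors Smad6 and Bambi. Id proteins are helix-loop-helix proteins without a DNA-binding region that hold E proteins away from DNA, and in serum-grown mouse embryonic stem cells BMP signalling and Id proteins are known to act beside LIF in self-renewal.

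Libraries held 8326675 to 13788856 counted reads. The siTfap4 libraries held the fewest reads (8326675 and 8829051) and the fewest genes with a count (19271 and 19432). The part of this difference in the results was not tested. The targeted transcripts were measured first, in CPM (reads scaled to a common library size). Tfap4 stood at 12.0 and 15.7 CPM in siTfap4 against 33.4 and 37.1 in siNeg, Wiz at 16.8 and 19.7 in siWiz against 49.9 and 46.1, and Zic2 at 2.15 and 1.83 in siZic2 against 4.49 and 2.21. The Zic2 level of siZic2 overlapped that of siWiz (2.59 and 2.01 CPM). In siTfap4, Wiz stood at 30.1 and 35.9 CPM, below both siNeg libraries, and Zic2 at 6.20 and 5.39, above both. The 2 siTfap4 libraries stood apart on the first principal component of log2 CPM, which held 59.8% of the variance. They lay at -103 and -57.7, and the other 6 libraries between 1.85 and 38.9. In siTfap4 against siNeg the median log2 fold change moved with the GC content of the last 300 transcript bases, from -0.29 in the lowest of 5 GC classes to 0.44 in the highest. The 10 embryonic stem cell markers summed to 3154 to 3485 CPM in all 8 libraries. Of these, 3 of 10 were higher in siTfap4 than in siNeg (Pou5f1, Dppa4 and Lin28a), beside 4.24% of all genes. The other 7 did not pass. Among them, Esrrb (mean 260 against 389 CPM) and Tdgf1 (474 against 724) lay below siNeg without overlap. Sox2 (901 against 809) and Utf1 (292 against 257) lay above siNeg without overlap. The share of all genes without overlap was not counted in this comparison. The 7 fibroblast markers, with Postn at 0 reads, summed to 9.55 and 6.80 CPM in siTfap4 and 11.7 and 10.2 in siNeg. Most of the fibroblast sum was Thy1, with a mean of 7.93 CPM in siTfap4 and 10.6 in siNeg. The 6 primitive endoderm markers summed to 3.84 and 5.28 against 6.40 and 5.86, with Sox7 lower. The 6 mesoderm markers summed to 3.10 and 4.69 against 3.82 and 3.36, and the 7 trophectoderm markers to 174 and 294 against 206 and 279. Most of the trophectoderm sum was Tfap2c, with a mean of 203 CPM in siTfap4 and 215 in siNeg. Of the 6 trophectoderm markers tested, 0 passed as lower and 0 as higher. The 6 neural markers, with Neurog2 at 0 reads, summed to 66.2 to 95.4 CPM over all libraries. The part of GC content, of the distance of siTfap4 from the other libraries and of these markers in the results was not tested, apart from the correction for GC content named below.

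In cells given the Tfap4 siPOOL, the BMP inhibitors Bambi and Smad6 and the target gene Id3 were lower than in control cells, while the ligand, the receptor, Smad1, Smad5, Id1 and Id2 did not pass the test. With edgeR's quasi-likelihood test and Benjamini-Hochberg adjustment over all genes tested, 3 of 9 genes were lower and 0 higher. Of the 3, Smad6 was close to the threshold (adjusted p = 0.0399 by edgeR), and its call held in 10 of 17 alternative analyses. The samples are bulk RNA, in which fewer expressing cells and less RNA per cell cannot be told apart. Of all 14647 genes, 11.7% were lower and 4.24% higher in that comparison (15.9% in either direction, 1709 lower and 621 higher). The median log2 fold change of the 9 genes was -0.15, beside 0.01 over all genes. Against siNeg, 0 of 9 genes passed the test in siWiz and 0 of 9 in siZic2, as did 0% of all genes in each.

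**Figure D1:**
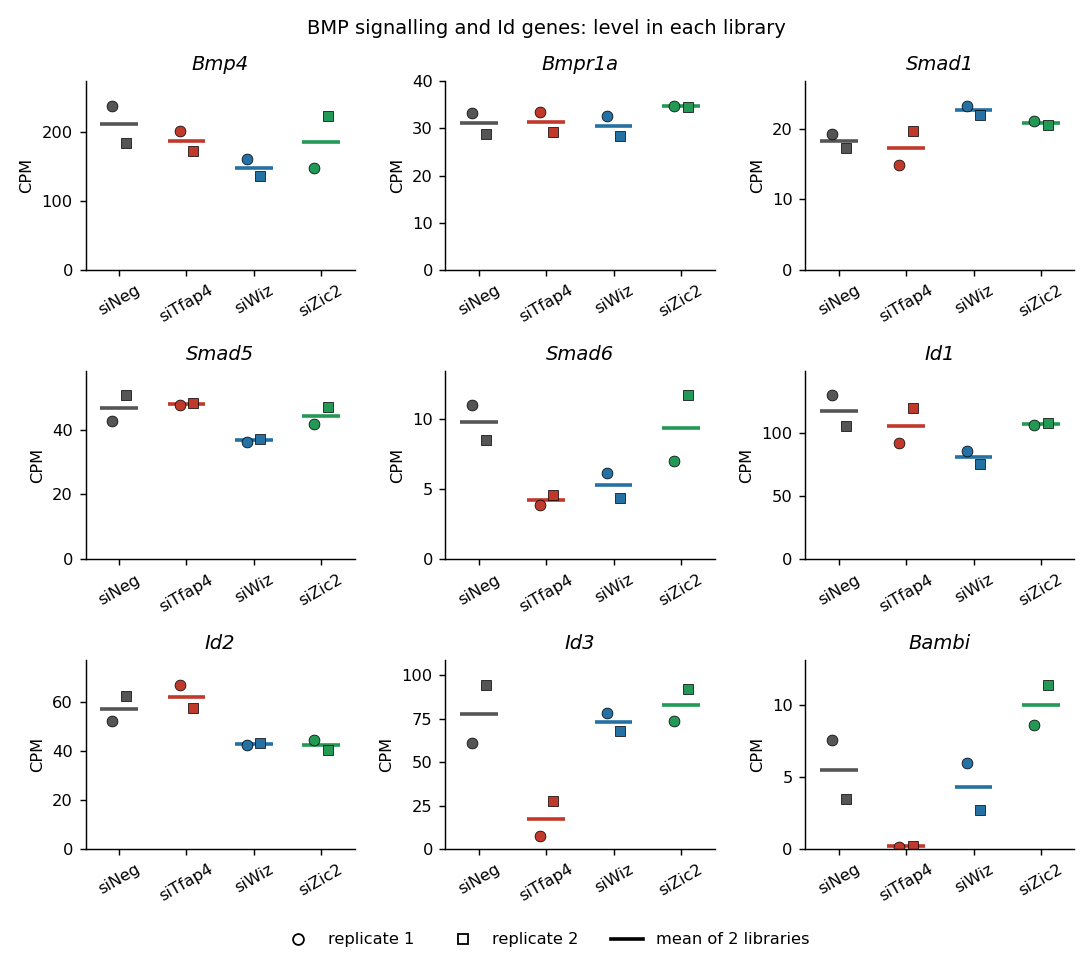
Level of each of the 9 genes in CPM (vertical axis, linear, from 0) in every library, by siPOOL group, with circles for replicate 1, squares for replicate 2 and a line for the mean of 2 libraries. Bambi and Id3 are lowest in both siTfap4 libraries, and Smad6 lies at 3.84 to 6.15 CPM in siTfap4 and siWiz and at 7.0 to 11.7 CPM in siZic2 and siNeg.

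Bmp4, the ligand that is the best known BMP of early embryonic cells, lies on the minus strand of chromosome 14 (46383520 to 46390669, GRCm38, ENSMUSG00000021835). It was measured at 238 and 184 CPM in siNeg, 201 and 172 in siTfap4, 161 and 136 in siWiz and 147 and 223 in siZic2. Both siWiz libraries lay below both siNeg libraries, while siTfap4 and siZic2 overlapped siNeg. The log2 fold change against siNeg was -0.18 in siTfap4 (SE 0.26, 95% interval -0.73 to 0.37, adjusted p = 0.657 by edgeR). In siWiz it was -0.51 (interval -1.06 to 0.04, unadjusted p = 0.0649, adjusted 0.9998), and in siZic2 -0.19 (interval -0.74 to 0.35). The antisense gene Gm15222 overlaps Bmp4 with at most 41 reads in a library, and strand use in the counting is not given in the sources used here.

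Bmpr1a, the main type I receptor for Bmp4, is on the same chromosome and strand (34410734 to 34503341, ENSMUSG00000021796). It had the narrowest range of the 9 genes, from 28.4 to 34.9 CPM over the 8 libraries, a ratio of highest to lowest of 1.23. The group means were 31.1 ± 3.19 CPM in siNeg, 31.4 ± 3.12 in siTfap4, 30.5 ± 2.96 in siWiz and 34.7 ± 0.233 in siZic2 (SD, n = 2). The siZic2 libraries (34.9 and 34.5 CPM) lay just above the highest siNeg library (33.3). Differences from siNeg were 0.01 on the log2 scale in siTfap4 (interval -0.49 to 0.52, adjusted p = 0.973), -0.03 in siWiz and 0.16 in siZic2, none past edgeR's threshold.

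Smad1, a receptor-activated transducer of the BMP signal on chromosome 8 (79338395 to 79399518, minus strand, ENSMUSG00000031681), was measured at 19.4 and 17.4 CPM in siNeg, 14.9 and 19.8 in siTfap4, 23.4 and 22.1 in siWiz and 21.2 and 20.5 in siZic2. Both siWiz and both siZic2 libraries were above both siNeg libraries, and siTfap4 spanned them. The log2 differences were -0.08 in siTfap4 (interval -0.63 to 0.46, adjusted p = 0.850), 0.30 in siWiz (interval -0.23 to 0.84) and 0.18 in siZic2 (interval -0.35 to 0.72).

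Smad5, the second transducer of the same class, is on chromosome 13 (56703010 to 56742377, plus strand, ENSMUSG00000021540). Its libraries stood at 42.7 and 50.6 CPM in siNeg, 47.7 and 48.2 in siTfap4, 36.1 and 37.2 in siWiz and 41.7 and 47.0 in siZic2. The siWiz libraries were the lowest and overlapped no other group. The log2 difference from siNeg was 0.04 in siTfap4 (interval -0.44 to 0.52, adjusted p = 0.923), -0.35 in siWiz (interval -0.83 to 0.13, unadjusted p = 0.143) and -0.08 in siZic2. Neither transducer passed edgeR's threshold in any comparison.

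Smad6, an inhibitory Smad that blocks receptor-activated Smads at the receptor and is itself a BMP target, lies on chromosome 9 (63953076 to 64022059, minus strand, ENSMUSG00000036867). It was measured at 11.1 and 8.55 CPM in siNeg (133 and 89 reads), 3.84 and 4.57 in siTfap4 (31 and 39 reads), 6.15 and 4.39 in siWiz and 7.0 and 11.7 in siZic2. The siTfap4 libraries lay below all siNeg and siZic2 libraries and overlapped siWiz, whose libraries also lay below those of siNeg. Smad6 was 2.33-fold lower in siTfap4 than in siNeg (log2 -1.22, SE 0.37, interval -2.01 to -0.43, adjusted p = 0.0399 by edgeR).

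The call on Smad6 sits close to the threshold. It held in 10 of 17 alternative analyses, whose adjusted p ran from 0.0178 to 0.214, and in 3 of 8 that left out a library. Without the first siTfap4 library the log2 fold change was -1.11 (adjusted p = 0.214), without the second -1.36 (0.0542), without the first siNeg library -1.002 (0.208), without the first siZic2 library -1.21 (0.0504) and without the second -1.21 (0.0540). The last 300 bases of its transcript have 28.3% GC, in the lowest GC class of genes, whose median was -0.29. After correction for GC content and transcript length the value was -0.86 (adjusted p = 0.0819).

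The bases just upstream of a start site are shown for Smad6, Bmp4 and Smad5, in windows that overlap no annotated exon. Smad5 has further windows, which overlap annotated exons and are not shown. They set the inhibitor that was lower in siTfap4 beside a ligand and a transducer that did not pass. The sequences are from RefSeq on GRCm38.p6, from the minus strand for Smad6 and Bmp4 and the plus strand for Smad5, written 5′ to 3′ and ending at the base before the start of transcription. Capitals mark E-boxes (CANNTG), the class of motif that basic helix-loop-helix factors such as Tfap4 and the E proteins bind.
Smad6, chr9:64022060-64022309: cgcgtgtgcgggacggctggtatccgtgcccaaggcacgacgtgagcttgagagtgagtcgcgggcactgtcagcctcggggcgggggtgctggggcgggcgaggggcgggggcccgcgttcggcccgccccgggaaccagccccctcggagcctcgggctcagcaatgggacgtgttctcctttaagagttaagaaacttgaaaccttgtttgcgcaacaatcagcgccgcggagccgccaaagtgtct
Bmp4, chr14:46390670-46390919: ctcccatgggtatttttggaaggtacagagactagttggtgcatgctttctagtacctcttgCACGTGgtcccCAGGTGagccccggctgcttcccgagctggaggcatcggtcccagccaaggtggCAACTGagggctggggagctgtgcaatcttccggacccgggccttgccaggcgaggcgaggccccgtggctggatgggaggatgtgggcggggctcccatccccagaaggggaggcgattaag
Smad5, chr13:56702760-56703009: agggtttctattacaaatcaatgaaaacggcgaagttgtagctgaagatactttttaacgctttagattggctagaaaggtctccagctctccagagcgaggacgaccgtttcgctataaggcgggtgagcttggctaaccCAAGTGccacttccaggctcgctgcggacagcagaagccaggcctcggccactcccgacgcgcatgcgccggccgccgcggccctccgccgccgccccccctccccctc

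The Smad6 window holds 0 E-boxes, and that of Bmp4 holds 3, starting 188, 177 and 123 bases before the start site. The Smad5 window shown holds 1, at 109 bases. Promoter windows were found for 7 of 9 genes, as 9 windows of 250 bases. Each was searched on both strands for CANNTG, for CAGCTG (the E-box form known for Tfap4, a subset of CANNTG), for GGCGCC (a GC-rich element known for Smad1 and Smad5) and for CAGACA or TGTCTG (a Smad-binding element). Of 32851 promoter windows of the same length, 66.2% hold CANNTG, 13.0% CAGCTG, 9.59% GGCGCC and 17.1% CAGACA or TGTCTG. Of the 9 windows, 4 held CANNTG (in Bmp4, Id2 and Smad5), 1 CAGCTG, 3 GGCGCC and 0 CAGACA or TGTCTG, counts too small for a comparison with those shares. The Smad5 windows with CANNTG (56702760 to 56703009 and 56702802 to 56703051) overlap each other. Their E-boxes, 109 and 151 bases before the respective start, are the same site. Only the Id2 window held CAGCTG, 196 bases before the start, together with GGCGCC at 231 bases. GGCGCC was also in the Bmpr1a window at 198 bases and in 1 of the 3 Smad5 windows at 19 bases. The windows of Id3, Smad1 and Smad6, and 1 of the 3 Smad5 windows, held none of the 4 motifs.

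Bambi, a membrane protein that resembles a type I receptor without a kinase domain and damps BMP and other TGF-beta family signals, lies on chromosome 18 (3507923 to 3516404, plus strand, ENSMUSG00000024232). The siTfap4 libraries held 1 and 2 reads, or 0.124 and 0.234 CPM. The siNeg libraries held 91 and 36 reads (7.56 and 3.46 CPM), siWiz 67 and 28 (5.97 and 2.67 CPM) and siZic2 124 and 106 (8.59 and 11.4 CPM). Every siTfap4 library was far below every other library, and siZic2 was above all the rest. With 3 reads in siTfap4 against 127 in siNeg, the level after scaling was 3.19% of that in siNeg, with a 95% counting interval of 0.650% to 9.55%. Use of molecular identifiers is not given in the sources here, and reads without them are not independent molecules, so the interval covers counting error only.

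The fitted log2 fold change of Bambi in siTfap4 against siNeg was -4.85 (SE 0.74, adjusted p = 0.00141 by edgeR), and its size depends on the prior count at so few reads. Bambi ranked 139 of 14647 genes by p in that comparison. The call held in all 17 alternative analyses, with values from -5.37 without the second siTfap4 library to -4.15 without the first siNeg library. The last 300 bases of Bambi have 41.7% GC, in the middle GC class, and the corrected value was -4.73 (adjusted p = 0.00171).

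Id1, the Id gene most often used as a readout of BMP signalling, is on chromosome 2 (152736251 to 152737410, plus strand, ENSMUSG00000042745). Its libraries stood at 130 and 105 CPM in siNeg, 91.5 and 119 in siTfap4, 85.7 and 75.5 in siWiz and 106 and 108 in siZic2. The siWiz libraries were the lowest, and siTfap4 and siZic2 overlapped siNeg. The log2 fold change in siTfap4 was -0.15 (SE 0.23, interval -0.65 to 0.34, adjusted p = 0.675 by edgeR), an interval that does not reach a 2-fold fall.

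Id2, on chromosome 12 (25093799 to 25097140, minus strand, ENSMUSG00000020644), was measured at 52.2 and 62.8 CPM in siNeg, 67.2 and 57.6 in siTfap4, 42.6 and 43.5 in siWiz and 44.6 and 40.7 in siZic2. The siNeg and siTfap4 libraries overlapped, and all 4 libraries of siWiz and siZic2 lay below them. The log2 difference of siTfap4 from siNeg was 0.12 (SE 0.22, interval -0.37 to 0.60, adjusted p = 0.755 by edgeR).

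Id3, on chromosome 4 (136143497 to 136145755, plus strand, ENSMUSG00000007872), was called lower in siTfap4, unlike Id1 and Id2. Its libraries stood at 60.9 and 94.6 CPM in siNeg (732 and 984 reads), 7.32 and 27.7 in siTfap4 (59 and 236 reads), 78.2 and 67.8 in siWiz and 73.9 and 92.4 in siZic2. Both siTfap4 libraries were below all 6 others, and they differed from each other more than the libraries of any other group did in proportion. Id3 was 4.43-fold lower in siTfap4 than in siNeg (log2 -2.15, SE 0.44, interval -3.09 to -1.20, adjusted p = 0.00705 by edgeR). The call held in all 17 alternative analyses, but its size rests on which siTfap4 library is used. It was -3.42 without the second, -1.50 without the first, -2.41 without the first siNeg library and -1.80 without the second. The last 300 bases have 42.3% GC, in the middle GC class, and the corrected value was -2.04 (adjusted p = 0.00375).

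Ratios of counted reads between pairs of the listed genes were also taken within each library. They are compared between libraries only, since reads of 2 genes are not on a scale of level per gene. For every 100 reads of Id1 there were 7.99 and 23.2 reads of Id3 in siTfap4, against 47.0 and 90.1 in siNeg, 91.3 and 89.8 in siWiz and 69.6 and 85.8 in siZic2. For every 100 reads of Smad5 there were 8.05 and 9.49 reads of Smad6 in siTfap4, 25.9 and 16.9 in siNeg, 17.0 and 11.8 in siWiz and 16.8 and 24.9 in siZic2. Both ratios were lowest in the siTfap4 libraries. For every 100 reads of Smad1 there were 25.8 and 23.1 reads of Smad6 in siTfap4, 57.1 and 49.2 in siNeg, 26.3 and 19.9 in siWiz and 33.0 and 57.1 in siZic2. There siTfap4 overlapped siWiz and was not the lowest.

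**Figure D2:**
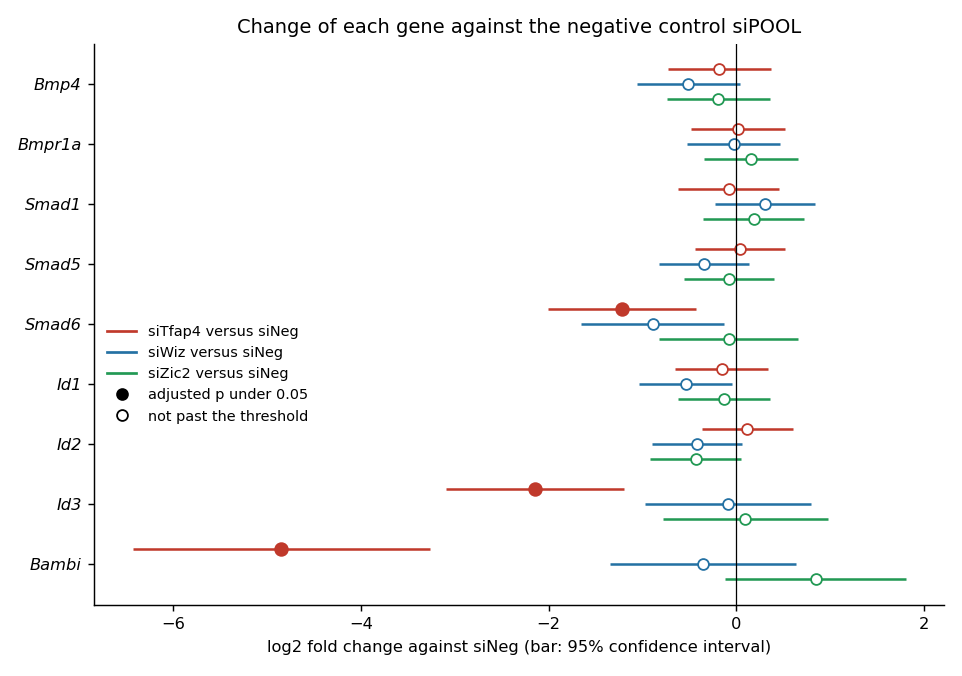
Log2 fold change of each of the 9 genes against siNeg (horizontal axis) for siTfap4, siWiz and siZic2, with 95% confidence intervals and filled points where the adjusted p is under 0.05. The filled points are Smad6, Id3 and Bambi in siTfap4, and every siWiz and siZic2 point is open.

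With the Wiz siPOOL, 8 of 9 genes had a negative log2 fold change against siNeg and Smad1 a positive one, and none passed the adjusted test. The sign turned for Bmpr1a, Id3 and Bambi when 1 library was left out. The largest negative values were -0.89 for Smad6 (SE 0.36, interval -1.66 to -0.13, unadjusted p = 0.0251), -0.54 for Id1 (SE 0.23, interval -1.04 to -0.04, unadjusted p = 0.0349) and -0.51 for Bmp4. Each of these had an edgeR adjusted p of 0.9998. Id2 was at -0.42 (unadjusted p = 0.0847), Bambi at -0.35 and Id3 at -0.09. The libraries did not overlap with siNeg for 6 of 9 genes (Bmp4, Smad1, Smad5, Smad6, Id1 and Id2). Such separation was also seen for 25.1% of all genes tested, while 0% were called. At an unadjusted p under 0.05 stood 2 of 9 genes, both lower, beside 266 of all 14647 (1.82%, or 0.867% as lower). The median of the 9 genes was -0.35, beside 0.00 over all genes. DESeq2 called 0 of the 9 genes and 1 gene in all.

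With the Zic2 siPOOL, the largest values against siNeg were 0.85 for Bambi (SE 0.45, interval -0.12 to 1.81, unadjusted p = 0.0800) and -0.43 for Id2 (interval -0.92 to 0.05, unadjusted p = 0.0759). The other 7 genes lay between -0.19 and 0.18. At an unadjusted p under 0.05 stood 0 of 9 genes, beside 86 of 14647 (0.587%, or 0.246% as lower), and DESeq2 called 0 genes. The 9 genes had a median of -0.08. The intervals do not show that the genes were level: that of Smad6, for example, ran from -0.82 to 0.66.

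The siPOOL groups were also set against each other. These comparisons share the siTfap4 libraries with the one against siNeg and are given as values of their own. Against siWiz, 2 of 9 genes were lower in siTfap4 by edgeR, Id3 (log2 -2.06, SE 0.44, adjusted p = 0.00943) and Bambi (-4.50, SE 0.75, adjusted p = 0.00283), where 15.1% of all genes passed, 10.4% as lower and 4.66% as higher. Bambi in siTfap4 was 4.13% of its siWiz level (counting interval 0.836% to 12.4%). Smad6 was -0.33 apart (interval -1.13 to 0.48, adjusted p = 0.593), so siTfap4 and siWiz were not told apart for this inhibitor.

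Against siZic2, 3 of 9 genes were lower in siTfap4 by edgeR, where 23.1% of all genes passed, 14.7% as lower and 8.41% as higher. They were Smad6 (log2 -1.14, SE 0.37, adjusted p = 0.0401), Id3 (-2.24, SE 0.44, adjusted p = 0.00397) and Bambi (-5.70, SE 0.71, adjusted p = 0.000346). Bambi was 1.86% of its siZic2 level (counting interval 0.382% to 5.52%). With the correction for GC content and length, Smad6 no longer passed (-0.70, adjusted p = 0.137). Id2, uncorrected at 0.54 against siWiz (adjusted p = 0.122) and 0.55 against siZic2 (0.0932), then passed as higher in siTfap4 (0.85 with adjusted p = 0.0255, and 0.98 with 0.00974). Between siWiz and siZic2, 0 of 9 genes passed (0% of all genes), with Bambi at -1.20 (unadjusted p = 0.0201) and Smad6 at -0.81 (unadjusted p = 0.0387). At an unadjusted p under 0.05 stood 384 of all genes, and DESeq2 called 0.

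By group mean, the order for Bambi was siZic2 (10.0 ± 1.99 CPM, SD, n = 2), siNeg (5.51 ± 2.90), siWiz (4.32 ± 2.33) and siTfap4 (0.179 ± 0.078). The neighbours siNeg and siWiz overlapped. For Id3 it was siZic2 (83.2 ± 13.0), siNeg (77.7 ± 23.8), siWiz (73.0 ± 7.36) and siTfap4 (17.5 ± 14.4), where the first 3 overlapped. For Smad6 it was siNeg (9.80 ± 1.77), siZic2 (9.36 ± 3.34), siWiz (5.27 ± 1.24) and siTfap4 (4.21 ± 0.515), with overlap within the upper pair and within the lower pair. For Id1, siNeg (117 ± 17.4), siZic2 (107 ± 0.965) and siTfap4 (105 ± 19.5) overlapped, and siWiz (80.6 ± 7.18) was lowest.

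**Figure D3:**
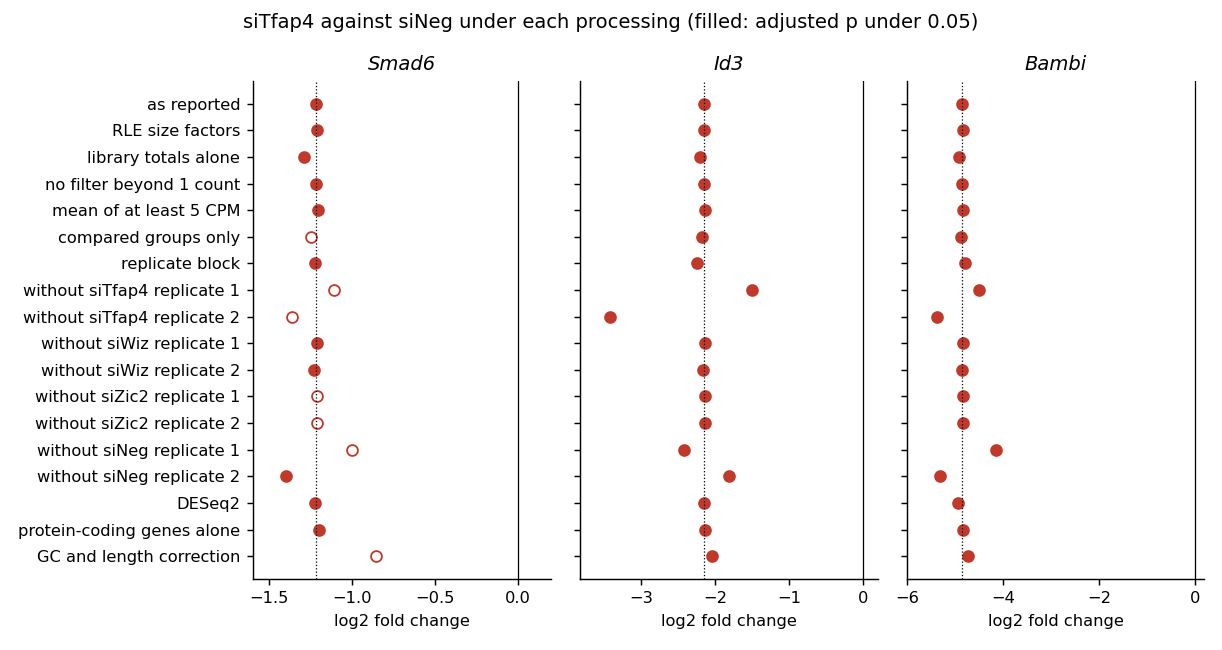
Log2 fold change of Smad6, Id3 and Bambi in siTfap4 against siNeg (horizontal axes, 1 panel per gene) in the analysis as reported and in 17 alternatives (vertical axis), filled where the adjusted p is under 0.05. Id3 and Bambi are filled throughout, Smad6 in 10 of 17 alternatives, and the widest shifts of Id3, to -3.42 and -1.50, come from leaving out 1 siTfap4 library.

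The rest of the pathway was read from lists of 63 other genes, of which 37 were tested. In siTfap4 against siNeg, 5 of 37 were lower, 1 higher and 31 not called by edgeR. Over all genes 11.7% were lower and 4.24% higher, so the counts are near the background. The median log2 fold change of the 37 genes was -0.09. In siWiz and in siZic2 against siNeg, 0 of 37 passed, and 0 of 37 had an unadjusted p under 0.05 in either. Leaving out the first siTfap4 library left 2 of the 37 called and leaving out the first siNeg library 3, while without the second siNeg library there were 9.

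Among the other ligands, 2 of 14 had enough reads, Gdf3 and Bmp8a, and neither passed. Among the 8 tested of 9 other receptors and co-receptors, Acvr1, a type I receptor for BMPs, was lower in siTfap4. It was measured at 0.124 and 1.41 CPM (1 and 12 reads) against 9.39 and 3.65 in siNeg, 9.54 and 3.25 in siWiz and 12.3 and 9.57 in siZic2. Its log2 fold change against siNeg was -3.06 (SE 0.75, adjusted p = 0.0171 by edgeR), and the call was lost without the first siTfap4 library (-2.22, adjusted p = 0.144) or the first siNeg library (-2.20, 0.140). Acvr2a, a type II receptor, was at -1.29 (adjusted p = 0.0501). It passed as lower in siTfap4 against siWiz (-1.33, adjusted p = 0.0467) and against siZic2 (-1.46, 0.0238).

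The common-partner Smad4 and the inhibitory Smad7 did not pass, at 0.04 and -0.19 in siTfap4 against siNeg. Of the 5 tested of 12 extracellular antagonists, which bind BMPs outside the cell, 2 were lower. Twsg1, which binds BMPs together with Chrd, was measured at 5.21 and 5.86 CPM in siTfap4 against 23.3 and 17.0 in siNeg, 22.5 and 19.3 in siWiz and 30.7 and 25.7 in siZic2. Its log2 fold change against siNeg was -1.86 (SE 0.29, adjusted p = 0.00146 by edgeR), and it passed in all 17 alternatives. Chrd, the antagonist chordin, stood at 0.868 and 1.17 CPM in siTfap4 against 4.66 and 5.57 in siNeg, 4.90 and 7.26 in siWiz and 6.38 and 6.13 in siZic2. It was at -2.31 (SE 0.44, adjusted p = 0.00479), with 0.0504 without the first siTfap4 library, and Thpo on the opposite strand overlaps it with up to 150 reads. Both antagonists were lower in siTfap4 than in every other group.

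All 10 intracellular inhibitors and ligases were tested, with 1 lower and 1 higher. Ctdsp2, a phosphatase of small C-terminal domain type that acts on Smads, was at 18.7 and 38.5 CPM in siTfap4 against 79.4 and 84.5 in siNeg (log2 -1.52, SE 0.30, adjusted p = 0.00523 by edgeR). Its value was -2.14 without the second siTfap4 library and -1.10 without the first, and its transcript end is shared with Gm9770, so reads could fall to either. Fkbp1a, which binds type I receptors and holds them inactive, was at 925 and 730 CPM against 375 and 517 (log2 0.89, SE 0.26, adjusted p = 0.0354). It passed in 12 of 17 alternatives, with an adjusted p of 0.210 without the first siTfap4 library, and shares its end with the pseudogene Fkbp1a-ps1.

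Of the 7 tested of 12 other BMP target genes, Gata2, a transcription factor of blood and trophoblast, was lower, with 5 and 3 reads in siTfap4 (0.620 and 0.352 CPM) against 3.82 and 2.02 CPM in siNeg (log2 -2.57, SE 0.71, adjusted p = 0.0277 by edgeR). That call was lost without either siTfap4 library or without the first siNeg library (adjusted p of 0.112, 0.0855 and 0.189). Id4, the fourth Id gene, was at 7.81 and 3.64 CPM in siTfap4 and 17.0 and 9.32 in siNeg, a log2 difference of -1.21 that did not pass (adjusted p = 0.0585). The E proteins, the partners that Id proteins bind, did not pass for any of Tcf3, Tcf4 and Tcf12, with values from -0.09 to 0.10.

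**Figure D4:**
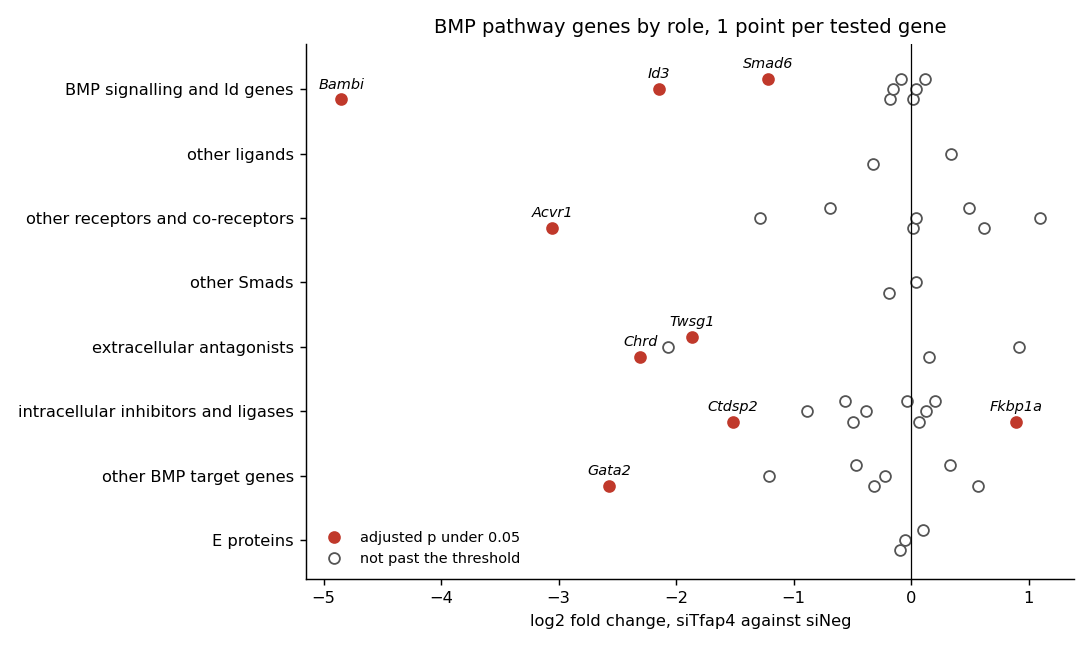
Log2 fold change in siTfap4 against siNeg (horizontal axis) of every tested gene of the BMP pathway lists, 1 row per role, filled and named where the adjusted p is under 0.05. Named points are mostly to the left of 0, with Fkbp1a to the right, and the 3 E proteins lie within -0.09 and 0.10.

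Against siWiz, 5 of the 37 genes were lower in siTfap4 and 0 higher, namely Acvr1, Acvr2a, Chrd, Twsg1 and Ctdsp2, beside 10.4% lower and 4.66% higher over all genes. Against siZic2, 7 were lower and 4 higher, beside 14.7% and 8.41% over all genes. Beyond genes already named, these were Skil, a nuclear co-repressor of Smads (log2 -0.74, adjusted p = 0.0431 by edgeR), and, as higher, Acvrl1, an endothelial type I receptor (2.20, 0.0243), Fstl3, a follistatin-like antagonist (1.37, 0.0449), and Dusp9, an ERK phosphatase known as a BMP target in stem cells (1.04, 0.0263). Reads were few for Acvrl1 (57 summed over siTfap4 and 18 over siZic2) and for Fstl3 (105 and 56). Between siWiz and siZic2, 0 of 37 passed.

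Pairs of the 9 genes were set side by side over the 8 libraries as Pearson correlations of log2 CPM, which are a description, since the libraries share the siTfap4 group that stood apart. Id3 and Bambi had r = 0.875 over 8 libraries and 0.079 over the 6 libraries without siTfap4. Smad6 and Bambi had 0.798 and 0.691, and Smad6 and Id3 0.671 and 0.263. Id1 had r = 0.057 with Id3 and 0.256 with Id2, over 8 libraries, and -0.041 and 0.411 over the 6. Id2 and Id3 had -0.665 over 8 libraries and 0.135 over the 6, so the sign turned without siTfap4. The correlation of Id3 with Bambi rested on the 2 siTfap4 libraries.

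Among 9595 protein-coding genes with a mean of at least 5 CPM, the closest in pattern to Id3 over 8 libraries were Nup62cl (r = 0.998), Ndufa4 (0.997) and Eif4a1 (0.997). Those closest to Bambi were Atl2 (0.995), Klhl9 (0.995) and Pcgf3 (0.994), and those closest to Id1 were Snx24 (0.933), Lman1 (0.875) and Gen1 (0.875). These genes were picked for their correlation over libraries that include siTfap4, so their level in siTfap4 follows from the choice and was not tested.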

How the data were processed

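RNA was extracted with Trizol and 500 ng went into QuantSeq 3′ FWD libraries, which read transcript ends, per the labels' protocols. The authors deposited unnormalized whole-number counts, 1 row per Ensembl gene. Trim Galore and GRCm38 are named in the submitters' processing notes. For the aligner, counter, annotation release, strand setting and molecular identifiers, nothing was given in the sources used here. Of 55421 identifiers, 55240 matched GENCODE M21. Replicates differed beyond counting noise, with a chi-square of 19.6 to 42.0 for each degree of freedom.

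Genes kept by filterByExpr (14647) were scaled by TMM. All 8 libraries entered 1 quasi-likelihood fit in edgeR 4.0.16 (R 4.3.3) with a mean for each group and no block, for 6 comparisons. The biological coefficient of variation was 22.2% with 4 residual degrees of freedom. The Benjamini-Hochberg adjustment ran over all genes tested, with a threshold of 0.05, and only genes past it are called lower or higher. SE values come from the F statistic, intervals are at 95%, and log2 CPM used a prior count of 2. Tested on simulated data for siTfap4 against siNeg with 14292 genes, the fit recovered 28 of 100 2-fold and 88 of 100 4-fold changes. It made 5 false calls at each of these folds.

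The 9 genes and the pathway and marker lists were chosen with earlier results of these data known. Of the other pathway genes, up to 3 called genes per list and comparison with the smallest p are named, and, for Id1, Id3 and Bambi, the 3 most correlated genes. Gdf3, Bmp8a, Smad4, Smad7, Id4 and the E proteins are named beyond that rule, chosen after their values were seen. Alternatives were RLE size factors, library totals, no minimum but a total of 1 count, a minimum mean of 5 CPM, the compared groups only, the replicate block, each library left out, and DESeq2 1.42.0. Chosen after seeing the data were both siTfap4 libraries left out, protein-coding genes alone, and a correction for length and for the GC content of the last 300 transcript bases.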

Additional observations from a re-analysis of the deposited data

How the results depend on the processing

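The 3 calls in siTfap4 against siNeg kept their direction in every alternative, and Smad6 alone of the 3 lost its threshold in some of them. With the compared groups only, Smad6 was at -1.25 (adjusted p = 0.0513). The count of the 9 genes called was 2 to 3 there, 2 to 2 against siWiz and 2 to 3 against siZic2 when a library was left out, and 0 throughout for the other comparisons. Other pathway genes called ranged from 2 (without the first siTfap4 library) to 9 in the same analyses. Over all genes, the correction for GC content and length moved the calls in siTfap4 against siNeg from 1709 lower and 621 higher of 14647 to 1595 and 1004 of 12483, and DESeq2 called 2669.

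Several results that were not called changed sign. In siTfap4 against siNeg the GC correction gave 0.19 for Bmp4, 0.18 for Smad1 and 9.6e-06 for Id1, library totals -0.0526 for Bmpr1a and -0.0174 for Smad5, and the compared groups only -0.0188 for Bmpr1a. In siWiz the GC correction gave 0.00611 for Bmpr1a. Leaving out a library gave, in siTfap4, -0.37 to 0.0337 for Bmp4, -0.10 to 0.14 for Bmpr1a, -0.32 to 0.10 for Smad1, -0.0606 to 0.15 for Smad5, -0.37 to 0.0228 for Id1 and -0.00676 to 0.24 for Id2. In siWiz it gave -0.13 to 0.0932 for Bmpr1a, -0.36 to 0.26 for Id3 and -1.05 to 0.34 for Bambi, and in siZic2 -0.50 to 0.11 for Bmp4, -0.16 to 0.0502 for Smad5, -0.47 to 0.29 for Smad6, -0.28 to 0.0634 for Id1 and -0.15 to 0.45 for Id3. The cause was not tested. With a library left out, the lone library of its group is assumed to vary like the other groups.

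The labels do not say that replicate numbers mark a shared batch. Same-numbered deviations correlated at 0.13 to 0.33 in 5 of 6 pairs of groups and at -0.04 in siTfap4 and siWiz, and the second principal component was higher in replicate 1 than in replicate 2 in all 4 groups. This is a hint of a shared replicate effect, and since not every pair passed 0.1 the numbers were not used as a pairing. With the replicate block the 9 genes gave the same counts of calls, 3 against siNeg, 2 against siWiz and 3 against siZic2 in siTfap4 and 0 elsewhere, with Smad6 at -1.22 (adjusted p = 0.0311), Id3 at -2.24 (0.00274) and Bambi at -4.79 (0.00149). Other pathway genes called rose from 6 to 9 under the block. At 1 to 39 reads in siTfap4, depth limits the size of the Bambi and Smad6 differences.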
